A study of Mus musculus with 23 samples.

Results

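Voltage-gated sodium and calcium channels are the membrane proteins that start and carry the action potential and that let calcium into the neuron when the membrane depolarises. Each channel has 1 large pore-forming subunit, called alpha in sodium channels and alpha1 in calcium channels, and smaller auxiliary subunits that set how much channel reaches the membrane and how it gates. In the hippocampus, sodium channels are concentrated at the start of the axon, whereas calcium channels trigger transmitter release at terminals, shape firing in dendrites and link activity to transcription.

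The genes were chosen by name among protein-coding rows: sodium channel alpha and beta genes (Scn), calcium channel alpha1 and alpha2delta genes (Cacna) and calcium channel beta genes (Cacnb). Of 51912 genes in the deposited tables, 30 channel genes are considered here, and 26 had a mean normalized count of 10 or more. A normalized count is the authors' read count of a gene divided by 1 size factor per library. All 26 passed in both tables, and all 26 passed the filter on low values in every comparison. They code for 6 sodium alpha, 3 sodium beta, 9 calcium alpha1, 4 calcium alpha2delta and 4 calcium beta subunits, so 15 are pore-forming and 11 auxiliary. Just inside the limit stood Cacna1s, the skeletal muscle alpha1 subunit, with a mean of 17.4 in the fathers and 16.9 in the offspring. The 4 genes left out were Cacna1f, of the retina, Scn4a, of skeletal muscle, and Scn10a and Scn11a, of sensory neurons, with means between 2.7 and 3.5.

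The study sequenced hippocampal RNA of male wild-type C57BL/6 mice, in 4 groups from 2 generations. Sedentary fathers (n = 4 libraries) had no access to exercise, and exercised fathers (n = 4) ran on a treadmill for 40 min per day over 6 weeks. All fathers were then bred and were 7 months old at collection. Offspring of sedentary fathers (n = 8) and offspring of exercised fathers (n = 7) were 5.5 months old, had no treadmill training stated in the labels, and went through the same behavioural tasks as the fathers. The labels name neither the father nor the litter of an offspring, nor do they say that every library is 1 animal, so p-values measure only the spread between these libraries. In the offspring of exercised fathers, 3 pairs of libraries have titles that differ in the last character only, and whether these are littermates is not stated. With each such pair averaged, 0 of 26 channel genes were called in the offspring, as in the fit on all libraries. Generation, age, training in the fathers' lifetime and the 2 deposited tables cannot be told apart in any comparison of fathers with offspring.

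Reads assigned to genes, recovered from the normalized counts as described below, summed to between 33667580 and 55172616 per library. Every gene of the lists for dentate granule, CA1, CA3 and CA2 pyramidal cells and general neurons reached a mean of 10. None was at 0 in any group. The lists for neocortex, choroid plexus, thalamus and habenula and other cell types met the same limits, so these limits cannot set the hippocampus apart. The summed normalized count of 10 neocortex genes ran from 16763 to 22045 across libraries, beside 15527 to 23957 for 8 dentate granule cell genes. Markers of neighbouring tissue were also present and varied. The summed normalized count of 15 choroid plexus genes ran from 2943 to 214213 across libraries. That of 12 genes of the thalamus and habenula reached 26486 in the sedentary fathers, against at most 12461 in any other group. These values are given again beside the channel genes that moved with them. In bulk tissue, fewer cells of a type and less RNA per cell cannot be told apart.

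Channel levels are compared as the normalized count divided by the length of the longest transcript. Scn2b, a beta subunit linked covalently to the alpha subunit, had a mean of 2707 per kilobase in the fathers and 2817 in the offspring, and Cacnb3, a cytoplasmic calcium channel beta subunit, 2697 and 2930. These were the highest of the 26, and Scn3b, another sodium channel beta subunit, followed with 2422 and 2554. At the low end, Cacna1s stood at 2.79 and 2.71 per kilobase, Scn9a, the alpha subunit of peripheral sensory neurons, at 10.9 and 10.9, and Cacna2d4, an alpha2delta subunit best known from the retina, at 16.2 and 12.4. Among the sodium alpha genes, Scn2a at 1870 and 1771 and Scn8a at 1791 and 1806 led, and were followed by Scn1a at 691 and 607 and Scn3a, which is known for fetal expression, at 261 and 278. Scn2a and Scn8a code for the main alpha subunits of excitatory axons and Scn1a for the one that interneurons depend on. Among the alpha1 genes, Cacna1e, of the R-type channel, led with 1313 and 1371, followed by Cacna1a, of the P/Q-type channel at terminals, with 922 and 972.

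**Figure D1:**
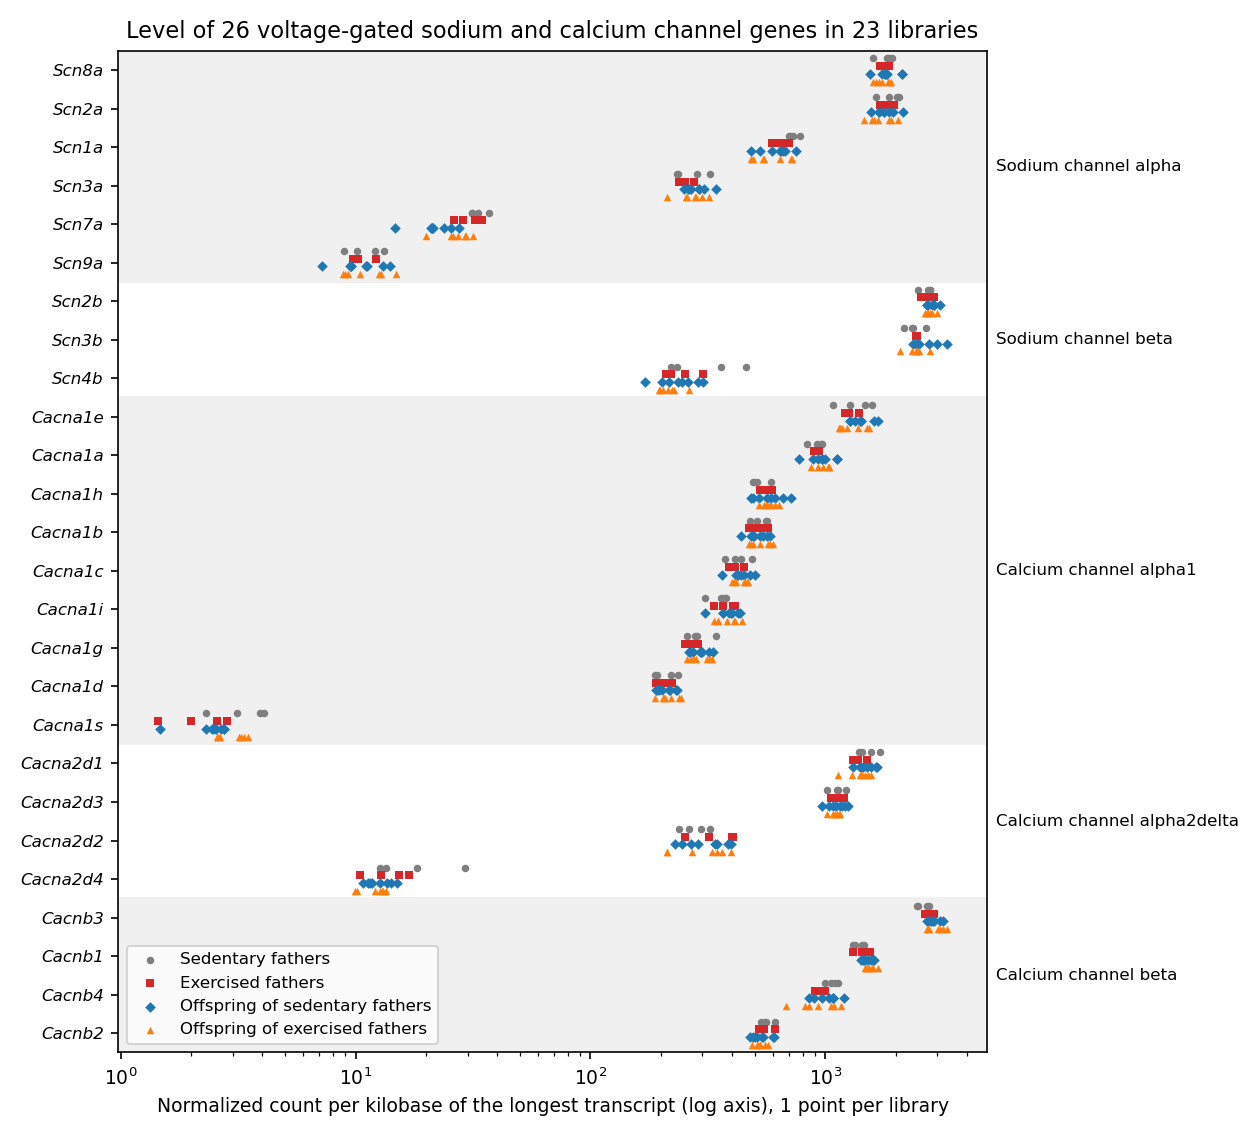
Normalized count per kilobase of transcript (log axis) for the 26 channel genes, 1 point per library, coloured by group and ordered by family and level. Cacnb3 and Scn2b are highest, near 2930 and 2817 per kilobase in the offspring, Cacna1s is lowest near 2.79 in the fathers, and for most genes the 4 groups lie on top of each other.

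As a set, the channel genes varied within groups about as much as all genes tested. The median SD of log2 values within groups was 0.13 for the 26 genes and 0.14 for 18377 genes tested. Scn2b varied least, with an SD of 0.07. Cacna2d4 varied most, with an SD of 0.33, which is at the 78.6th percentile of genes tested, and Scn4b, Cacna1s and Cacna2d2 followed with 0.32, 0.32 and 0.30. The sum of the 15 pore-forming genes ran from 85698 to 105962 in sedentary fathers, 90456 to 100742 in exercised fathers, 84050 to 112899 in offspring of sedentary fathers and 85937 to 106005 in offspring of exercised fathers. The sum of the 11 auxiliary genes ran from 61054 to 68086, 61852 to 65314, 61759 to 73733 and 59824 to 67611 in the same order. The ranges of all 4 groups overlapped in both sums.

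The first aim in the design text was to compare exercised with sedentary fathers. In this comparison 0 of 26 channel genes passed an adjusted p of 0.05 (limma on log2(normalized count + 1), Benjamini-Hochberg over 17493 genes), where 0% of all genes did. edgeR on recovered reads called 0 of 26, beside 0% of all genes. DESeq2 called none of the channel genes to which it gave an adjusted p, beside 0.563% of the 11727 such genes. It gave no adjusted p to Cacna1s, Cacna2d4 and Scn9a. In limma, an unadjusted p under 0.05 was reached by 2 of 26 (7.69%), beside 8.01% of all genes tested. The median log2 fold change was -0.03, beside 0.00 for all genes, with 9 genes above 0 and 17 below, where 51.2% of all genes were above 0. By role, 0 of 6 sodium alpha genes, 2 of 3 sodium beta, 3 of 9 alpha1, 2 of 4 alpha2delta and 2 of 4 calcium beta genes were above 0. Markers of other tissue moved with this comparison, with none called. All 15 choroid plexus genes were higher in exercised fathers (median log2 fold change 1.70). All 11 tested genes of the thalamus and habenula (-0.53), all 6 meningeal fibroblast (-0.63), 6 endothelial (-0.23), 6 mural (-0.19) and 5 erythrocyte genes (-0.81) were lower. Their part in the values of the channel genes was not tested beyond the covariate fits given below. For 22 of 26 genes the 95% interval of the fold change lay within 0.5 of 0 on the log2 scale, and the exceptions were Scn4b, Cacna1s, Cacna2d2 and Cacna2d4.

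Among the sodium channel genes, Scn1a was the only gene of the 26 whose groups did not overlap in the fathers, beside 5% of all genes tested. Its normalized counts were 5904, 5950.1, 6540.4 and 6083 in sedentary fathers and 5299, 5886, 4991 and 5690.2 in exercised fathers. The lowest sedentary library stood just above the highest exercised one. limma gave a log2 fold change of -0.16 (SE 0.06, adjusted p = 0.556). Scn1a loss of function is the best-known cause of Dravet syndrome, a childhood epilepsy. In the offspring, Scn1a ran at 4038 at the lowest, 5391 at the median and 6263 at the highest in the offspring of sedentary fathers and at 4036 at the lowest, 4578 at the median and 6051 at the highest in the offspring of exercised fathers, and the groups overlapped over most of their range (log2 fold change -0.08, SE 0.10, limma adjusted p = 0.823).

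Cacna2d2, an alpha2delta subunit with high levels in cerebellar Purkinje cells, was singled out after its values were seen. It varied between libraries together with the transcription factor genes Zic1 to Zic5, which mark the septum, thalamus and cerebellum among other places. Cacna2d2 stood at 1390.3, 1527, 1877 and 1714 in sedentary fathers and 1866, 1463, 2343 and 2325 in exercised fathers, which overlap. It ran at 1330.1 at the lowest, 1813 at the median and 2299 at the highest in offspring of sedentary fathers and at 1230.5 at the lowest, 1903 at the median and 2312 at the highest in offspring of exercised fathers. The log2 fold change was 0.28 in the fathers (SE 0.15, limma adjusted p = 0.642) and -0.05 in the offspring (SE 0.15, limma adjusted p = 0.934). The 5 Zic genes summed to 2124, 2654, 4335 and 3842 in sedentary and 4289.6, 2244, 5672 and 4725 in exercised fathers. In the fathers, the libraries with the lowest Zic sums, sedentary replicates 1 and 2 and exercised replicate 2, were also the 3 lowest for Cacna2d2. Over the deviations of 23 libraries from their group means, Cacna2d2 and the mean log2 level of the Zic genes had a Pearson r of 0.969 and a Spearman rho of 0.939. Both permutation p-values were 1e-05, the smallest that 100000 resamples can give, and 0.00104 after adjustment over 104 relations. Without the 2 libraries farthest from the Zic median, r was 0.96, and it was 0.945 within the fathers and 0.976 within the offspring. The Zic genes were chosen after their values were seen, so these figures describe the libraries. The part of Zic-expressing tissue in the level of Cacna2d2 was not tested.

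**Figure D2:**
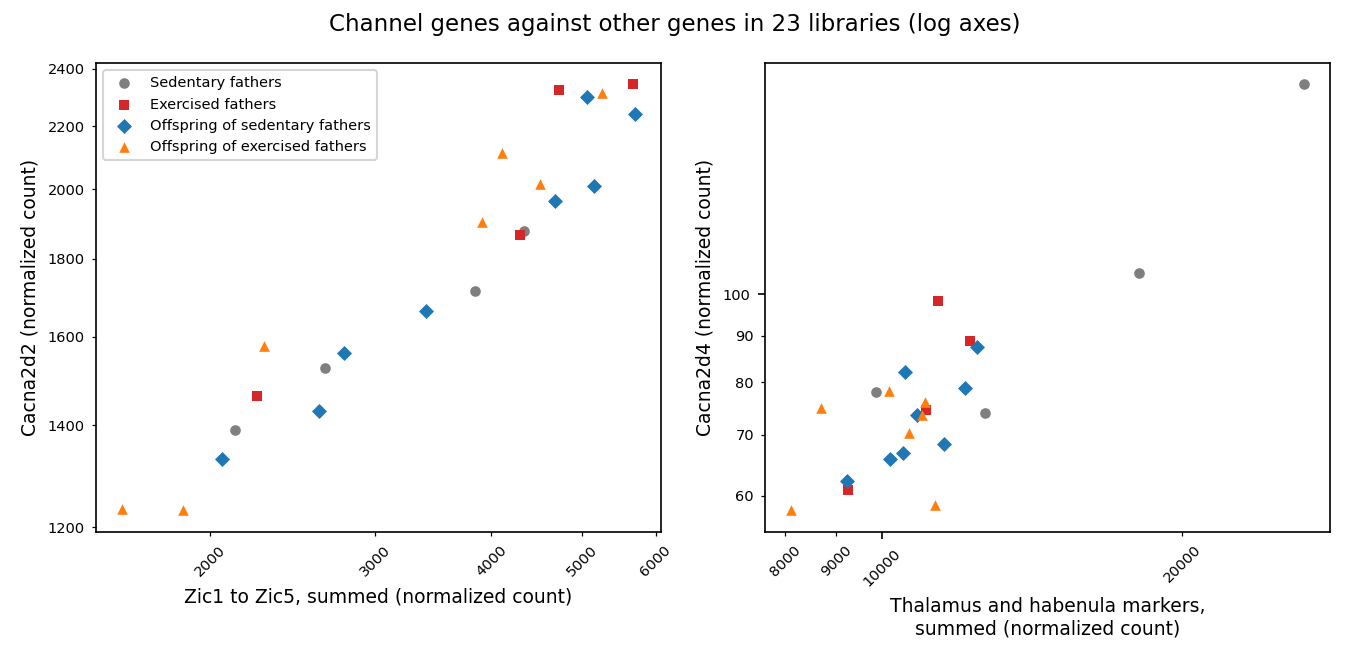
Normalized counts on log axes, 1 point per library, of Cacna2d2 against the sum of Zic1 to Zic5, and of Cacna2d4 against the sum of 12 thalamus and habenula markers. Cacna2d2 rises along the Zic axis in all 4 groups, and in the other panel the sedentary fathers hold the highest point, at a marker sum of 26486.

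Of the 6 sodium alpha genes, Scn1a, Scn2a, Scn3a, Scn7a and Scn9a lie within 1 cluster on chromosome 2 of GRCm38. In the GENCODE annotation Scn1a (ENSMUSG00000064329.13) spans chr2:66270778-66440840 and Scn7a (ENSMUSG00000034810.7) chr2:66673425-66784914, both on the minus strand. Cacna2d2 (ENSMUSG00000010066.15) lies at chr9:107399612-107529343 on the plus strand. Scn7a overlaps no other annotated gene, while Scn1a overlaps Gm13630 and Cacna2d2 overlaps the antisense genes Gm17118 and Gm17141 on the opposite strand. The kit keeps the strand of the RNA, and the sources used here do not give whether counting used it. The bases before the RefSeq start are shown for Cacna2d2, which varied with the Zic genes, and for the sodium alpha genes Scn7a and Scn1a. Scn7a separated sedentary fathers from the offspring of sedentary fathers without overlap, beside 1.78% of all genes. Scn1a separated exercised from sedentary fathers, beside 5% of all genes. The stretches shown are 250 bases in GRCm38.p6, on the gene's own strand. Capitals mark 3 motifs on either strand, which are GGGCGG (the GC box), CCAAT (the CCAAT box) and TATAAA (the TATA box). Cacna2d2 lies at chr9:107399630-107399879 on the plus strand, and Scn7a and Scn1a at chr2:66784911-66785160 and chr2:66440838-66441087 on the minus strand. The RefSeq and GENCODE starts differ, so that all 250 bases of the Cacna2d2 stretch lie inside the GENCODE gene, against 4 for Scn7a and 3 for Scn1a.
Cacna2d2: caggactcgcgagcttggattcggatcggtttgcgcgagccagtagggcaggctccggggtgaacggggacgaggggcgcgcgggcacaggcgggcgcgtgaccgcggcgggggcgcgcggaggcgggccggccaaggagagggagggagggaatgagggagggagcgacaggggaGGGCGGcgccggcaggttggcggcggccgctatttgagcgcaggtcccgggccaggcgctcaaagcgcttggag
Scn7a: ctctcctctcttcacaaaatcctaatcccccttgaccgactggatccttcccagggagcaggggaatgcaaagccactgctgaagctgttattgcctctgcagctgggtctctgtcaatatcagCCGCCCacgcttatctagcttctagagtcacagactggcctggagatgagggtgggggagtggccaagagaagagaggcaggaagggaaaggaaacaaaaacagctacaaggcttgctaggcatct
Scn1a: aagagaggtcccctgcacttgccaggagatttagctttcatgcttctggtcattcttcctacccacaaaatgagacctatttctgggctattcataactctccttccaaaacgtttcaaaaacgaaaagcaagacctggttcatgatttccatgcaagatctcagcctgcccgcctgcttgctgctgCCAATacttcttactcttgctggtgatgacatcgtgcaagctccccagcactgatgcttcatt
The Cacna2d2 stretch had 74.4% G and C and 34 CG pairs, whereas that of Scn7a had 53.2% and 3, and that of Scn1a 46.8% and 4. Over 32851 promoters the medians were 52.4% and 6 pairs. Cacna2d2 and Scn7a each held 1 GGGCGG, the latter on the opposite strand, and Scn1a held 1 CCAAT and no GC box. The GC box occurs in 32.7% of all promoters of this length, CCAAT in 33.8% and TATAAA in 12.4%. The table had 30 promoters for 20 of the 26 genes, of which 12 held GGGCGG, 7 CCAAT and 2 TATAAA. The motifs do not overlap in these stretches.

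Among the calcium channel genes of the fathers, Cacnb4 had the smallest unadjusted p. This beta subunit is the one mutated in the lethargic mouse, which has absence seizures. It stood at 9343, 9076, 8718 and 8206 in sedentary fathers and at 7988, 8211, 7414 and 7719.5 in exercised fathers. The groups overlapped by 1 library, since the highest exercised value lay just above the lowest sedentary one. The log2 fold change in limma was -0.17 (SE 0.05, adjusted p = 0.539). In the offspring Cacnb4 ran at 6994 at the lowest, 8708 at the median and 9876 at the highest for sedentary fathers and at 5615 at the lowest, 7626 at the median and 9595 at the highest for exercised fathers, with a log2 fold change of -0.13 (SE 0.10, limma adjusted p = 0.664). Without offspring of exercised fathers replicate 7, the lowest library, the offspring value was -0.06. Removing each library's trend on GC content brought the fold change in the fathers to -0.11, and the thalamus and habenula covariate to -0.27.

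Cacnb3 and Cacna1h were higher on average in exercised fathers and did not pass the test. Cacnb3 stood at 7423, 7583, 6703 and 6799.9 in sedentary and 7527, 7737, 7277 and 7932 in exercised fathers, which overlap (log2 fold change 0.10, SE 0.05, limma adjusted p = 0.633). Its fold change was 0.02 with the GC trend removed and 0.17 without both sedentary fathers 1 and 2. Cacna1h, of the T-type channel that opens at low voltage, stood at 4849.7, 4046, 4211 and 4088 and 4677, 4865, 4348 and 4766, with a log2 fold change of 0.12 (SE 0.06, limma adjusted p = 0.633). With the thalamus and habenula level as a covariate its fold change was -0.036, so its sign rests on that choice. Cacna2d1, an alpha2delta subunit and target of gabapentin, was lower on average in exercised fathers, at 12669.8, 11629, 10623 and 10338 in sedentary and 10182, 11142, 10243 and 9734 in exercised fathers, which overlap (log2 fold change -0.13, SE 0.07, limma adjusted p = 0.635). Its fold change ran from -0.27 with the thalamus and habenula covariate to -0.02 without both sedentary fathers 1 and 2, and the adjusted p over its alternatives from 0.160 to 0.951. Cacna1s, at a level of few reads, stood at 14.4, 24.4, 25.6 and 19.6 and 16.1, 8.99, 12.5 and 17.8, with a log2 fold change of -0.58 (SE 0.28, limma adjusted p = 0.619). Its lowest exercised library was at 8.99 and its highest sedentary one at 25.6, and its fold change ran from -0.82 with the Zic covariate to -0.21 with the thalamus and habenula covariate.

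**Figure D3:**
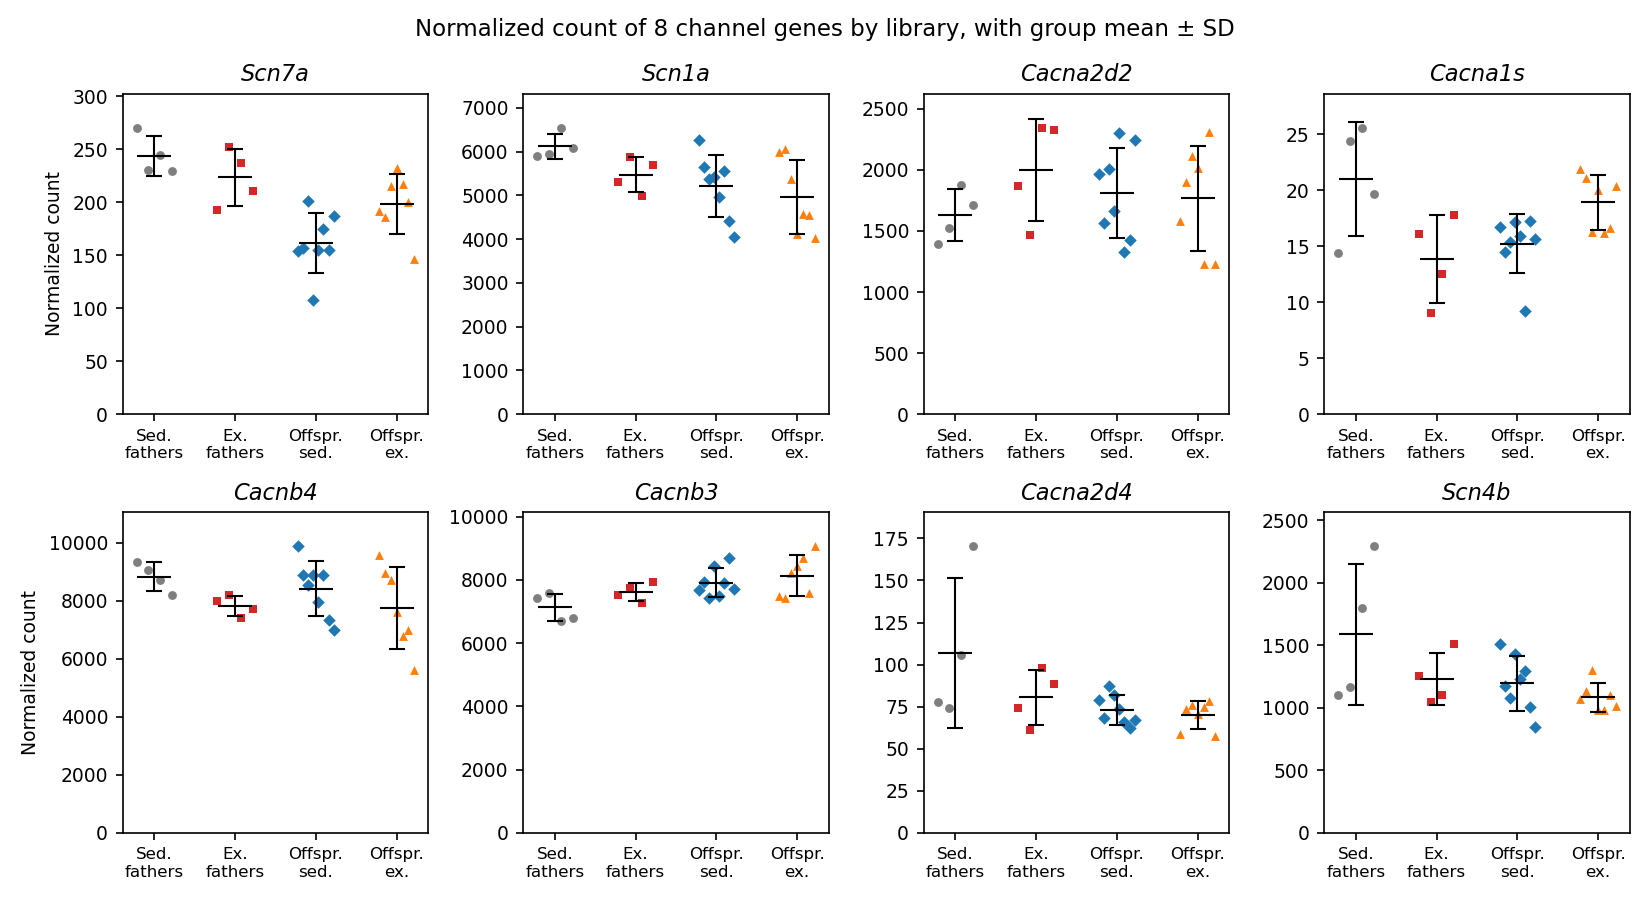
Normalized count of 8 channel genes, 1 point per library and bars for the group mean ± SD, on axes that start at 0. Sedentary fathers lie above the offspring of sedentary fathers for Scn7a (229 to 270 against 108 to 202), and the groups overlap in the other panels for that pair.

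The second aim was to compare offspring by the exercise of their fathers. Here too 0 of 26 channel genes passed an adjusted p of 0.05 in limma, where 0% of 17522 genes did. edgeR called 0 of 26, beside 0% of all genes. DESeq2 called none of the channel genes to which it gave an adjusted p, beside 0.626% of 7670 such genes. It gave no adjusted p to Scn7a, Cacna1s, Cacna2d4 and Scn9a, and Scn7a and Cacna1s had the smallest limma p of the 26 here. In limma, an unadjusted p under 0.05 was reached by 1 of 26 (3.85%), beside 9.85% of all genes. The median log2 fold change was -0.02, beside 0.00 for all genes, with 11 genes above 0 and 15 below, where 49.6% of all genes were above 0. All 4 alpha2delta genes were below 0, between -0.09 and -0.03, and 7 of 9 alpha1 genes were above 0, none of them past the test. All 8 myelin genes were lower in offspring of exercised fathers (median log2 fold change -0.08), as were all 6 endothelial (-0.08) and 6 microglial genes (-0.03), and their part in these values was not tested beyond the myelin covariate. For 24 of 26 genes the 95% interval lay within 0.5 of 0 on the log2 scale, the exceptions being Scn7a and Cacna1s.

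Scn7a, which codes for a sodium-sensing relative of the voltage-gated channels found in glia and in salt-sensing organs of the brain, had the smallest unadjusted p in the offspring. It ran at 108 at the lowest, 156 at the median and 202 at the highest in offspring of sedentary fathers and at 146 at the lowest, 200.3 at the median and 232 at the highest in offspring of exercised fathers. The latter group lay higher, and the ranges overlapped from 146 to 202. The log2 fold change in limma was 0.30 (SE 0.12, adjusted p = 0.453). Cacna1s ran at 9.22 at the lowest, 15.8 at the median and 17.3 at the highest and 16.1 at the lowest, 19.98 at the median and 21.9 at the highest, with a log2 fold change of 0.31 (SE 0.15, limma adjusted p = 0.514). The lowest of these libraries was replicate 6 of the offspring of sedentary fathers, and without it the value was 0.21.

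Among the abundant genes, Cacna1e ran at 18929 at the lowest, 21086 at the median and 25102 at the highest in offspring of sedentary fathers and at 17071 at the lowest, 18512 at the median and 22864 at the highest in offspring of exercised fathers. limma gave a log2 fold change of -0.13 (SE 0.08, adjusted p = 0.567), and -0.05 with the trend on transcript length removed. Scn3b ran at 9762 at the lowest, 10307 at the median and 13707 at the highest and 8650.1 at the lowest, 10078 at the median and 11572 at the highest, with a log2 fold change of -0.12 (SE 0.07, limma adjusted p = 0.578), and -0.043 with the myelin level as a covariate. Cacna2d1 ran at 9749 at the lowest, 10988 at the median and 12323 at the highest and 8457 at the lowest, 10679.5 at the median and 11657 at the highest, with a log2 fold change of -0.09 (SE 0.07, limma adjusted p = 0.636). That of Cacna2d1 was -0.042 with the GC trend removed and -0.044 without offspring of exercised fathers replicate 7. The groups overlapped for all of these. For Cacna1e, the median of the offspring of exercised fathers, 18512, lay below the lowest offspring of sedentary fathers, 18929.

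**Figure D4:**
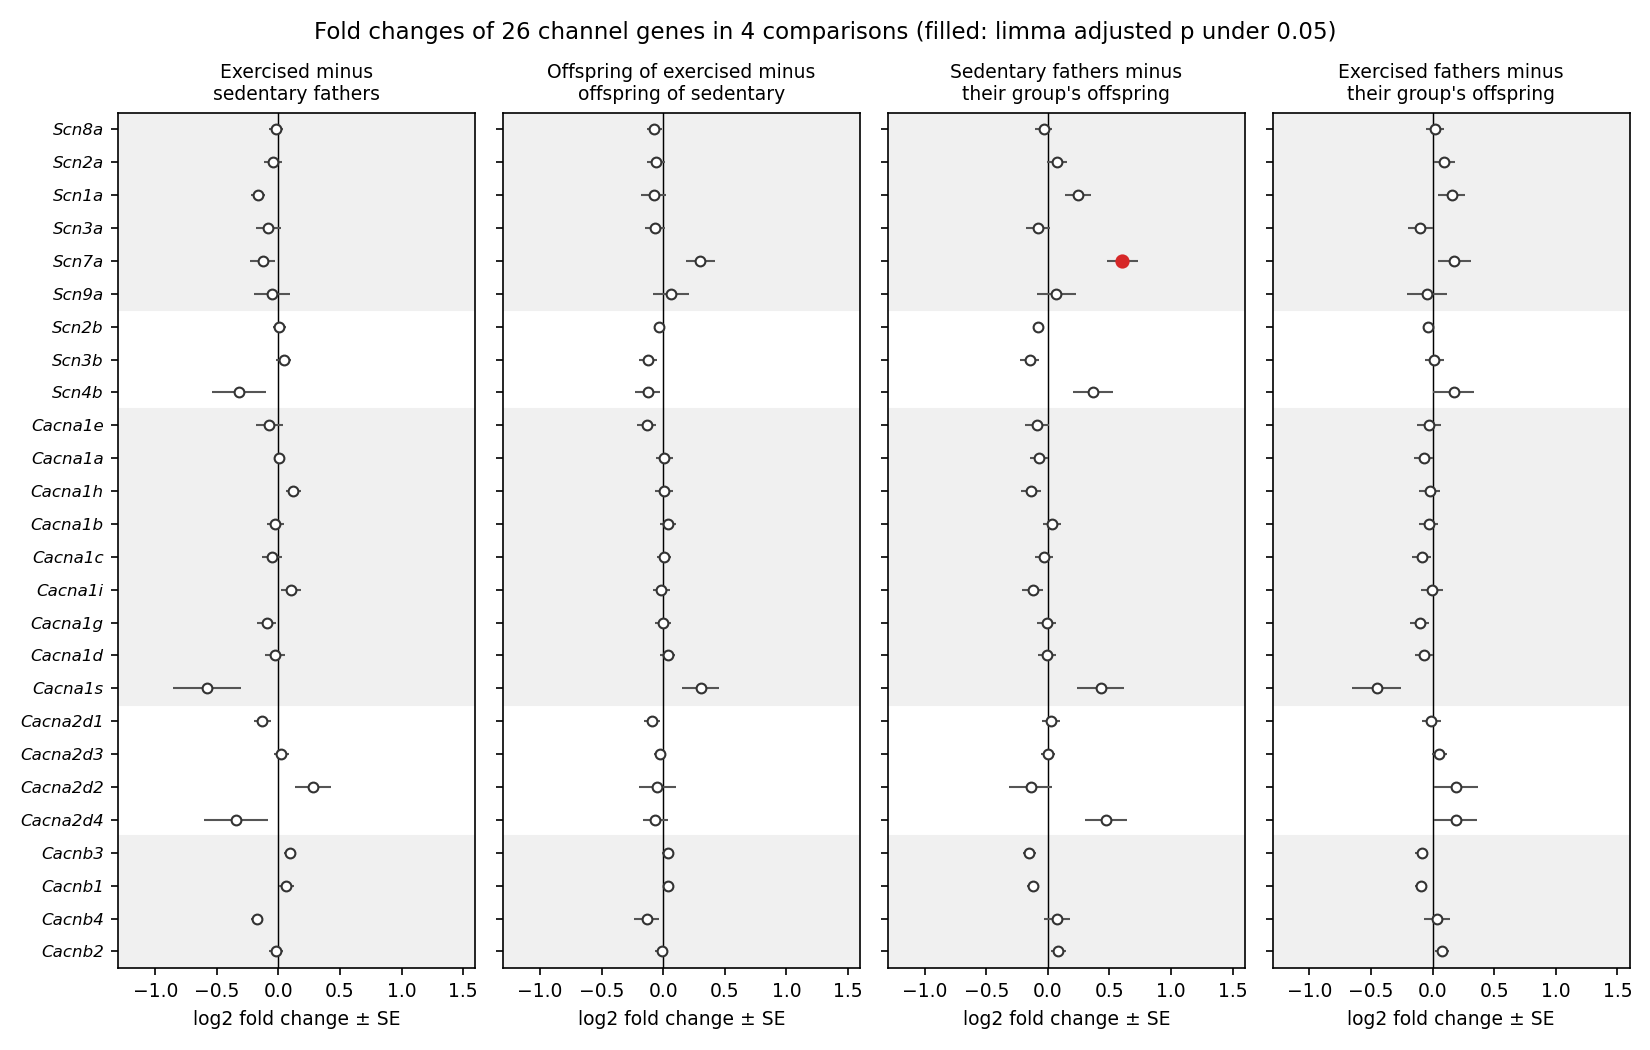
log2 fold change with its SE for the 26 channel genes in 4 comparisons, from limma. Scn7a is the only filled point, at 0.61 in sedentary fathers against the offspring of sedentary fathers, and the widest error bar in the fathers is that of Cacna1s, with an SE of 0.28.

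Across generations, 1 channel gene passed the test. Between sedentary fathers and the offspring of sedentary fathers, 1 of 26 was called, beside 0.299% of 18377 genes, and 7 of 26 (26.9%) had an unadjusted p under 0.05, beside 12.7%. edgeR and DESeq2 also called 1 channel gene each, beside 0.457% of 18377 and 2.38% of 15523 genes. DESeq2 gave no adjusted p to Cacna1s. The fold change was above 0 for 12 and below 0 for 14 of the 26, where 50.6% of all genes were above 0. The gene called by limma was Scn7a. It stood at 270.3, 230.3, 244 and 229 in sedentary fathers and at 108 at the lowest, 156 at the median and 202 at the highest in their group's offspring. Every sedentary father lay above every one of these offspring, beside 1.78% of genes whose groups did not overlap. The log2 fold change was 0.61 (95% interval 0.34 to 0.87, SE 0.13, limma adjusted p = 0.0477). edgeR gave an adjusted p of 0.0347 and DESeq2 of 0.00153 on recovered reads. The limma call lay close to the threshold and was lost in 15 of 30 alternatives, with fold changes between 0.53 and 0.65 throughout. Leaving out any 1 of the 4 sedentary fathers ended it. Fitting the 2 groups alone gave an adjusted p of 0.140, and the thalamus and habenula covariate 0.677.

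Markers of other tissue moved with this comparison. All 11 tested genes of the thalamus and habenula were higher in the sedentary fathers, with a median log2 fold change of 0.50, and all 15 choroid plexus genes were lower, with a median of -0.51. Of 6 meningeal fibroblast genes 5 were higher, with a median of 0.27. All 5 erythrocyte genes were higher (median 0.09), and all 8 genes of dentate granule cells, a cell type of the hippocampus, were lower (-0.10). In limma, 1 gene each of the thalamus and habenula, oligodendrocyte precursor and endothelial lists passed the test. None of the markers in these lists was at 0 in any group. The fold change of Scn7a was 0.62 with the thalamus and habenula level as a covariate and 0.63 with that of the choroid plexus. The part of the meningeal, erythrocyte and dentate granule cell genes was not tested. In the exercised fathers, Scn7a stood at 193, 253, 237 and 211, and in the offspring of exercised fathers at 146 at the lowest, 200.3 at the median and 232 at the highest. These groups overlapped, with a log2 fold change of 0.18 (SE 0.13, limma adjusted p = 0.691). The difference between the 2 generation contrasts is the same number as that between the exercise effects in fathers and offspring, -0.43 (SE 0.18, limma adjusted p = 0.849), and did not pass.

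The next genes of that comparison did not pass. Cacnb3 was at 6703 to 7583 in sedentary fathers and 7417 to 8702 in the offspring, with a log2 fold change of -0.15 (SE 0.05, limma adjusted p = 0.220). Cacnb1, a beta subunit shared with skeletal muscle, had -0.12 (SE 0.05, limma adjusted p = 0.252), from 4874, 4972, 4524 and 4467 in sedentary fathers and 4812 at the lowest, 5088 at the median and 5467 at the highest in the offspring. Cacna2d4 stood at 78.0, 74.1, 106 and 170.3 in sedentary fathers and ran at 62.3 at the lowest, 71.0 at the median and 87.4 at the highest in the offspring, with a log2 fold change of 0.47 (SE 0.17, limma adjusted p = 0.220). Its 2 highest libraries were sedentary replicates 3 and 4, with thalamus and habenula levels of 9.25 and 9.57 on the mean log2 scale, but replicate 2 had the lowest value of the 4 at a level of 9.36. Over library deviations from group means, Cacna2d4 and this level had r 0.593 and rho 0.471 (adjusted permutation p = 0.376 and 0.305), and r was 0.37 without the 2 farthest libraries. With the myelin level, Cacna2d4 had r 0.621 and rho 0.627, and with the Zic level r 0.556 and rho 0.559. The adjusted permutation p was 0.0709 for r and 0.134 for rho with either level. Without the 2 farthest libraries, r was 0.539 for myelin and 0.518 for Zic. The fold change of Cacna2d4 was 0.02 with the thalamus and habenula covariate and 0.22 without sedentary father 4. With the same covariate that of Cacnb3 was -0.040 and that of Cacnb1 -0.050. Scn4b, a beta subunit of fast-firing neurons that was singled out after its values were seen, stood at 1102, 1164, 1801 and 2292 in sedentary fathers and ran at 848 at the lowest, 1200.0 at the median and 1509 at the highest in the offspring, with a log2 fold change of 0.37 (SE 0.16, limma adjusted p = 0.341). Its relation to the thalamus and habenula level had r 0.55 and rho 0.364 (adjusted permutation p = 0.352 and 0.45), and r was 0.239 without the 2 farthest libraries. The relation of Scn4b to the myelin level had r 0.597 and rho 0.671 (adjusted permutation p = 0.0709 and 0.0889), and r was 0.679 without the 2 farthest libraries.

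Between exercised fathers and the offspring of exercised fathers, 0 of 26 channel genes were called, beside 0.0653% of genes in limma. An unadjusted p under 0.05 was found for 1 (3.85%), beside 10.1%. edgeR and DESeq2 called 0 of the 26, beside 0.0544% of 18377 and 0.655% of 18016 genes. Of the 26, 11 had a fold change above 0 and 15 below, with a median of -0.02, where 53.5% of all genes were above 0. All 9 alpha1 genes were below 0, with a median log2 fold change of -0.07 beside a median SE of 0.08. Above 0 were 4 of 6 sodium alpha, 2 of 3 sodium beta, 3 of 4 alpha2delta and 2 of 4 calcium beta genes. In the same comparison all 15 choroid plexus (median log2 fold change 1.13), 8 myelin (0.12), 6 astrocyte (0.14) and 6 microglial genes (0.08) were higher in the fathers. All 6 endothelial (-0.23) and 5 erythrocyte genes (-0.58) were lower, of which 1 endothelial gene passed the test. Their part in the alpha1 values was not tested. The median over all 26 channel genes was 0.0125 with the myelin level as a covariate, against -0.0178 without it. Cacna1s stood at 16.1, 8.99, 12.5 and 17.8 in exercised fathers and 16.1 at the lowest, 19.98 at the median and 21.9 at the highest in their group's offspring (log2 fold change -0.46, SE 0.20, limma adjusted p = 0.445). Its value was -0.28 without exercised father 2. Cacnb1 stood at 4456, 5121, 4857 and 5281 in exercised fathers and 5033 at the lowest, 5199 at the median and 5702 at the highest in the offspring (-0.10, SE 0.05, limma adjusted p = 0.506), and its value was -0.050 without exercised father 1. Cacnb3 had -0.09 (SE 0.06, limma adjusted p = 0.608) and Scn1a 0.16 (SE 0.11, limma adjusted p = 0.669), with overlapping groups. The generation contrasts share no library, but both were read from 1 fit with a common spread.

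The exercise effect was also compared between generations. 0 of 26 genes differed at an adjusted p of 0.05, beside 0% of 18377 genes in limma. edgeR and DESeq2 also called 0 of the 26, beside 0% of 18377 and 0.0327% of 18373 genes. An unadjusted p under 0.05 was found for 2 (7.69%), beside 5.67%. The difference was above 0 for 11 genes and below for 15, where 51.6% of all genes were above 0. Cacna1s was lower in exercised than sedentary fathers and higher in offspring of exercised fathers, and the effects differed by -0.88 on the log2 scale (SE 0.28, limma adjusted p = 0.775). Scn7a differed by -0.43, as given above, and Scn3b by 0.16 (SE 0.11, limma adjusted p = 0.914, and 0.030 with the thalamus and habenula covariate), with normalized counts of 11189, 9729, 9779 and 8979 in sedentary and 10109.9, 10230.3, 10160.0 and 10229 in exercised fathers.

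The co-variation of channel genes between libraries was also described. Of 325 pairs, 105 had an adjusted permutation p for r under 0.05, of which 104 were positive and 1 negative, and the median r was 0.24. An r of 0.5 or more was reached by 32.3% of these pairs, beside 6.2% of the pairs of all 18377 genes tested, which include genes of few reads, and whose median r was 0.00. All pairs share the same 23 libraries, and genes are not independent of each other. The strongest were Cacna2d1 with Scn3a (r 0.93, rho 0.938), Cacna1b of the N-type channel with Scn2a (r 0.925, rho 0.922) and Cacna1d, an L-type subunit, with Cacna1e (r 0.914, rho 0.902), each with an adjusted permutation p of 0.000135 for r and 0.000171 for rho. Without the 2 farthest libraries they were 0.905, 0.912 and 0.891. The negative pair was Cacna2d2 with Cacnb3 (r -0.60, rho -0.55, adjusted permutation p = 0.0262 and 0.0522), and its r was -0.47 without the 2 farthest libraries. With the Zic level, Cacna2d2 had an r of 0.969. Cacnb3 had r -0.617 and rho -0.569 with that level (adjusted permutation p = 0.105 and 0.157). The part of the Zic level in this pair was not tested. The 13 genes of lower GC content, minus the 13 of higher, differed by between -0.185 and 0.221 on the log2 scale across libraries, lowest in sedentary fathers replicate 4 and highest in sedentary fathers replicate 1. The part of GC content in these pairs was not tested. Offspring of exercised fathers replicate 7 held the lowest Cacnb4 of all 23 libraries, at 5615.

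Of the genes for partners of these channels, 39 were listed and 37 tested, among them gamma subunits, fibroblast growth factor homologous factors, axon initial segment anchors, the sodium leak channel complex and presynaptic tethers. None was called in any of the 5 comparisons in limma. Without adjustment, p was under 0.05 for 3 higher and 2 lower genes in the fathers and for 1 of each in the offspring. These are 5 of 37 (13.5%), beside 8.01% of all genes, and 2 of 37 (5.41%), beside 9.85%. In the fathers the smallest p belonged to Stac2, an adaptor of L-type channels, at 2971, 2739, 3040.2 and 2786 in sedentary and 3622, 3121, 3331 and 3439.6 in exercised fathers (log2 fold change 0.23, SE 0.05, limma adjusted p = 0.539). Cabp1, a calmodulin relative that binds calcium channels, stood at 2682, 2682, 2548 and 2799 and 2897, 2876, 2855 and 2882 (0.10, SE 0.04, limma adjusted p = 0.556). In both, every exercised father lay above every sedentary one. The groups of fathers did not overlap for 4 of 37 partners (10.8%), beside 5% of all genes tested, and the other two, named after their values were seen, were Calm3 and Fgf12. In the offspring the smallest p belonged to Nedd4l, a ubiquitin ligase that removes sodium channels from the membrane, at 8237 at the lowest, 8892 at the median and 11170.2 at the highest and 7773 at the lowest, 8135 at the median and 9049 at the highest (-0.15, SE 0.06, limma adjusted p = 0.457). Sptbn4, the spectrin of the axon initial segment, ran at 7128 at the lowest, 8111 at the median and 9218 at the highest and 8147 at the lowest, 8713 at the median and 9659 at the highest (0.11, SE 0.05, limma adjusted p = 0.470).

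In the authors' deposited tables, 14 of 24357 genes with an adjusted p in the fathers and 11 of 12544 in the offspring had one under 0.05. No channel gene was among them, and Cacna1s, Cacna2d4 and Scn9a had no adjusted p in the offspring. The authors' deposited table for the fathers gives 0.17 for the unmoderated log2 fold change of Cacna2d2, against 0.28 in the limma fit. The authors' tables for fathers and for offspring give Cacna2d2 the same mean normalized count, 1839. The mean in the libraries used here was 1813 in the fathers and 1792 in the offspring. The sources used here do not say which libraries entered the authors' comparisons. At an unadjusted p under 0.05 those tables also held 0 channel genes, and the share of all genes at that limit is not given here. The smallest p was that of Scn7a in the offspring, 0.0503, with an unmoderated log2 fold change of 0.30 in the authors' deposited table.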

How the data were processed

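RNA from 23 hippocampal libraries was measured: 8 from fathers and 15 from offspring. Libraries held poly(A) RNA and kept its strand, per the labels' protocols. DESeq2 1.10, RSEM 1.2.28, STAR 2.5.2a and the build GRCm38 are named, without the step each served, per the submitters' processing notes. The annotation and filters behind the counts were not given in the sources used here, and the labels say that an outlier was left out.

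The authors deposited normalized counts, a signal made by dividing each library's counts by 1 size factor, as read from the values. Dividing by the value of 1 read gave numbers within 0.1 of a whole number for 100% of values, so whole reads were recovered for count tests. The median ratio of each library to the mean profile was 1.0026 to 1.0061, so both tables share 1 scale. Per the file headers, the authors' deposited comparison tables hold a mean signal, log2 fold changes, a test statistic score and p-values with adjusted p-values.

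The channel genes, gene lists, named genes and alternatives were chosen with earlier results of these data known, and 2 genes that the naming rule takes are not reported here. Genes named with library values were the 6 with the smallest p in fathers and in offspring, 4 in each generation contrast and 3 in the effect difference. Partner genes past the threshold were to be named, and otherwise the 2 with the smallest p in each of the fathers and offspring fits. limma 3.58.1 in R 4.3.3 was fitted to log2(normalized count + 1) with a mean-variance trend, over genes with at least 10 normalized counts in at least 4 fathers, 7 offspring or 4 of all 23 libraries. This scale understates fold changes of low genes. Tests were two-sided, with Benjamini-Hochberg adjusted p under 0.05 over all genes. edgeR 4.0.16 (quasi-likelihood) and DESeq2 1.42.0 were run on recovered reads, and the fits were tested on simulated data. Correlations used library deviations from group means, permuted within groups 100000 times with Python 3.11.15. Promoter sequences are from RefSeq, GRCm38.p6. Transcript length and GC content are those of the longest transcript in GENCODE M21 of GRCm38.

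Of 61 pairs of libraries within groups, none agreed within sampling noise (chi-square per degree of freedom 5.99 to 66.7), so all were kept. Recovered reads assigned to genes summed to between 33667580 and 55172616 per library. Without molecular identifiers PCR copies of 1 molecule cannot be told from separate ones. Replicate 4 of the exercised fathers, and among offspring of sedentary fathers replicates 7 and 8, have barcodes that come from another number series, which holds 1 group per generation, so no value within it could be computed. Gene ontology tables and gene lists of the authors were not used here.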

Additional observations from a re-analysis of the deposited data

Results flagged for a closer look

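In 104 sets of values, 1 per channel gene and group, 2 held a library whose gap to the nearest other exceeded Dixon's limit at the 95% level. Chance flags about 1 in 20 such sets. Cacna1s in offspring of sedentary fathers replicate 6 was the lowest of 8, at 9.22 against 14.5 for the next. Scn2b in sedentary fathers replicate 4 was the lowest of 4, at 11538 against 12806. No channel gene differed between fathers and offspring in its response to exercise at an adjusted p of 0.05 in limma.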

How the results depend on the processing

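No paired analysis was possible because the labels give no replicate numbers that pair libraries across groups. In fathers, in offspring, between exercised fathers and their group's offspring and for the effect difference, the number of channel genes called was 0 under every alternative run. DESeq2 gave some channel genes no adjusted p in fathers and offspring, as given above. The median fold change of the channel genes in fathers was -0.11 with the thalamus and habenula covariate, 0.037 with the choroid plexus covariate, 0.046 with the Zic covariate, which was added after seeing the data, 0.066 without both sedentary fathers 1 and 2 and -0.079 without both sedentary fathers 3 and 4, and leaving out 1 library at a time gave -0.075 (without sedentary father 4) to 0.014 (without sedentary father 1). Cacna1h in fathers changed sign with the thalamus and habenula covariate, to -0.036. Between sedentary fathers and their group's offspring, the number called was 0 without a filter, with the thalamus and habenula covariate, with the GC trend removed, without the 3 libraries of the other barcode series and in the fit on the 2 groups alone. Leaving out 1 library at a time gave 0 to 1, and it was 0 without any of sedentary fathers 1 to 4 or offspring of sedentary fathers 1, 2, 4, 5, 6 or 7. The adjusted p of Scn7a ran from 0.00153 to 0.677, and why the call was lost in these fits was not tested beyond the fewer libraries in some of them. Over all genes, limma called 0 in fathers, 0 in offspring, 55 and 12 in the generation contrasts and 0 in the effect difference, edgeR 0, 0, 84, 10 and 0, and DESeq2 66, 48, 369, 118 and 6. Groups of 4 to 8 libraries limit what can be called, and genes of few reads such as Cacna1s have wide intervals.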

Other observations

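Of 104 relations between a channel gene and the level of thalamus and habenula, choroid plexus, myelin or Zic genes over 23 libraries, 2 had an adjusted permutation p for r under 0.05. Beside Cacna2d2 with the Zic genes, this was Cacnb1, which was lower where choroid plexus genes were higher (r -0.66, rho -0.57, adjusted permutation p = 0.0499 for r and 0.134 for rho). Without the 2 libraries farthest from the choroid plexus median, r was -0.68, and it was -0.63 within the fathers and -0.70 within the offspring. The adjustment for Cacnb1 took in the Zic relations, which were chosen after their values were seen. An adjustment without them was not run, and the adjusted p for r lay just under the threshold. With the choroid plexus level, Scn8a and Cacnb3 each had an r of -0.59 (adjusted permutation p for r = 0.124 for each).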
